A study of Sus scrofa with 63 samples.

Results

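Skin biopsies from unexposed control sites differed widely in how much skeletal muscle RNA they held, and the 9 most muscle-rich control arrays were compared here with the 9 most muscle-poor. The 27 control arrays were ranked by the log2 signal of the 1 probe set named MYL1, the gene of a myosin light chain of fast muscle fibres. The 9 highest are called muscle-rich, the 9 lowest muscle-poor, and the 9 between them middle. These 18 compared arrays are part of 63 arrays in the series. The arrays were thus chosen by measured values, those of MYL1, so differences between them are given as descriptions with no test, and tests were kept to the 9 sham arrays and to labels that the ranking did not use.

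The series used female pigs, Yorkshire crossbred, and followed their belly skin after sulfur mustard, an alkylating blister agent, on Affymetrix GeneChip Porcine Genome arrays. Each pig of the exposed arm carried both agent-treated and untreated 3 cm sites on its ventral abdomen, so the control arrays come from animals that were also exposed elsewhere on the belly. Sham pigs were prepared in the same way and received no agent. All were depilated, and 8 mm punch biopsies were taken at 1, 2, 4, 24, 48, 72, 168, 336 and 514 h, from 3 animals for the control sites and 1 sham animal at each time. By the design text the last time falls a little earlier than the 514 h of the labels. No age is given, and the depth to which a punch reached is not given in the sources used here. Where the labels score the control sites, all scores of injury were 0 (18 arrays) and the total was 13 of 13, the normal value (9 arrays). Exposed arrays were not analysed here.

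Skeletal muscle is built of long fibres packed with sarcomeres, in which thick filaments of myosin pull on thin filaments of actin anchored at the Z-disc. Calcium released from the sarcoplasmic reticulum starts contraction through the troponin complex on the thin filament. Fast fibres lean on stored phosphocreatine and glycogen, slow fibres on mitochondria, and the fibre types use different genes for most contractile proteins. A sheet of skeletal muscle can lie beneath the skin and fat of the trunk, while the skin of the trunk itself holds smooth muscle, in vessel walls and at hairs.

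In the muscle-rich arrays MYL1 lay between 13.90 and 14.15 (median 13.97, mean 14.01 ± 0.09, SD, n = 9). The middle arrays covered 12.79 to 13.79. Muscle-poor arrays reached from 6.06 to 11.89, with a median of 8.26 and a mean of 8.84 ± 2.37 (n = 9). Muscle-rich arrays were therefore much alike in MYL1, whereas the muscle-poor ones fell into 5 arrays at 6.06 to 8.26 and 4 arrays at 10.24 to 11.89. The limits between classes were narrow at the top, where the lowest muscle-rich array (13.90) stood next to a middle array at 13.79. At the bottom a gap separated the highest muscle-poor array (11.89) from the lowest middle array (12.79). A muscle score, the mean over 45 thick filament, thin filament and Z-disc genes without MYL1, gave 11.12 to 12.30 in muscle-rich and 7.66 to 9.09 in muscle-poor arrays. Ranking by that score kept 8 of the 9 muscle-rich and 9 of the 9 muscle-poor arrays.

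**Figure D1:**
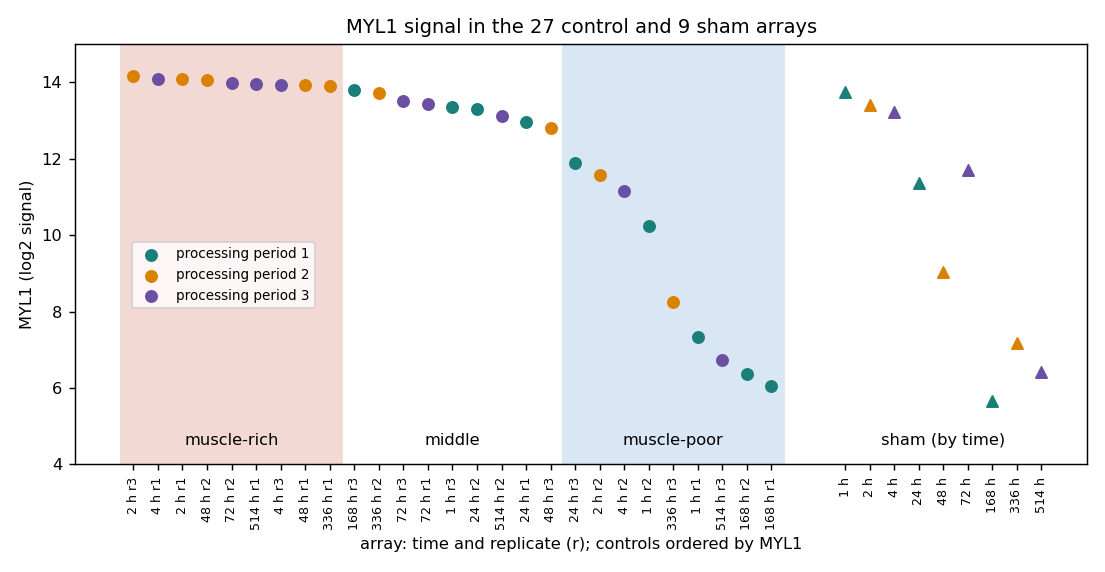
MYL1 log2 signal on the vertical axis for each of the 27 control arrays in order of MYL1 (circles) and each of the 9 sham arrays in order of time (triangles), coloured by processing period. The 9 muscle-rich arrays lie within 0.26 of each other, the 9 muscle-poor arrays spread over 5.83, and no muscle-rich array belongs to period 1.

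The class of a control array was set against the labels it carries. The arrays were handled in 3 processing periods, each holding 3 of the 9 times. A period groups label dates of RNA extraction and of in vitro transcription. Each period holds several extraction dates, and the classes were not tested against single dates. Period 1 had 0 muscle-rich, 4 middle and 5 muscle-poor arrays, period 2 had 5, 2 and 2, and period 3 had 4, 3 and 2. Fisher's exact test (two-sided, 3 tests adjusted by Benjamini-Hochberg) gave p = 0.109 and adjusted p = 0.326 for the period. The adjusted p was 0.363 for the time window and 0.663 for the replicate number. By the labels, replicates 1 and 2 share a sacrifice day at every time, and replicate 3 has another. The 3 tests missed the threshold, but they took arrays as independent, though control arrays of the same time share its period and time window. Ranked by the muscle score, 1 array of period 1 was among the 9 highest. It is control 168 h replicate 3, a middle array by MYL1 (13.79) with a score of 11.80. With no muscle-rich array by MYL1 in period 1, muscle and period cannot be fully told apart in the pooled difference. Values from the 3 highest and 3 lowest control arrays of each period, called within-period differences below, are therefore given beside the pooled ones. These ranks share 6 arrays with the muscle-rich and 7 with the muscle-poor class, the rest being middle arrays. MYL1 was 13.30 to 14.15 in the one set and 6.06 to 13.12 in the other, and differed by 4.60 instead of 5.16.

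Epidermal signal was present in both classes. KRT1, a suprabasal keratin and thus a check on the label skin, was between 13.62 and 14.13 in muscle-rich arrays and between 14.05 and 14.25 in muscle-poor ones. These signals lie near the highest value of the data, 14.54, so the check is on presence and not on amount. ACTA2, the smooth muscle actin gene, had means of 13.04 ± 0.22 and 13.11 ± 0.18 (n = 9 each), and the ranges overlapped. One quality measure did move with the class: the difference between the 3 prime and 5 prime GAPDH control probe sets was -0.08 to 0.30 in muscle-rich and 0.62 to 1.03 in muscle-poor arrays. GAPDH itself, a glycolytic gene, was 0.61 higher in muscle-rich arrays, with its 5 probe sets at -0.12 to 1.79. The same measure for actin (0.52 to 1.86 and 0.20 to 1.51) and EF1A (0.04 to 0.18 and 0.01 to 0.24) overlapped between the classes, and the part of RNA quality in the results was not tested. In whole biopsies fewer cells of a type and less RNA per cell cannot be told apart. Array medians were 7.75 to 7.86 over the series, and the number of arrays, not a read depth, limits the precision.

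A gene was counted as higher or lower when its class means differed by at least 1 on the log2 scale, a 2-fold change, and no muscle-rich array overlapped a muscle-poor array. All of the counted differences were in 1 direction. Of 6764 genes other than MYL1, 130 were counted higher in muscle-rich arrays (1.92%) and 0 lower (0.0%). Over probe sets, including those without a gene name, 267 of 23998 were higher (1.11%) and 0 lower (0.0%). Without a minimum size 202 genes (2.99%) were higher and 13 (0.192%) lower with no overlap. The median of all genes was -0.04. With within-period ranks 59 genes were counted higher, 58 of them among the 130.

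Of 18 listed genes of the thick filament 8 besides MYL1 were measured, and all 8 were counted higher, with a median difference of 5.15 (within-period 4.52). MYH2, a fast myosin heavy chain gene, was 11.68 to 13.99 (median 13.67) in muscle-rich and 5.91 to 9.97 (median 6.63) in muscle-poor arrays, a difference of 5.65. MYLPF, the fast regulatory light chain gene, was 13.86 to 14.29 (median 14.09) against 6.50 to 11.63 (median 7.69), a difference of 5.44. MYH7, the slow and cardiac heavy chain gene, had medians of 12.97 and 7.32 and differed by 5.25, and MYL2, the slow regulatory light chain gene, by 5.05. The fast and slow heavy chains thus stood apart in the same arrays. MYBPC1, which encodes a myosin binding protein, differed by 5.56, while MYOM2 and MYOM1 of the M-band that links thick filaments differed by 4.26 and 4.15. MYL3, a light chain of slow fibres, had the least difference of the list, 3.64, between means of 11.20 ± 0.52 and 7.56 ± 0.18 (n = 9 each).

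On the thin filament 12 of 14 measured genes were counted higher (median 5.00, within-period 4.36). TNNT1, the slow troponin T gene, was 11.84 to 12.90 (median 12.47) in muscle-rich arrays and 5.35 to 7.74 (median 5.60) in muscle-poor ones, a difference of 6.23. TNNT3, its fast counterpart, went from 13.25 to 14.11 (median 13.76) in the former to 6.21 to 10.19 (median 6.79) in the latter, a difference of 5.89. For the calcium-binding troponin C the fast gene TNNC2 differed by 4.99 and the slow gene TNNC1 by 4.63. For the inhibitory troponin I the values were 5.01 for the fast TNNI2 and 5.20 for the slow TNNI1. ACTC1, an actin gene of heart that is also made in skeletal muscle, differed by 5.82 and of this list varied most among muscle-rich arrays (10.06 to 13.39). NEB, the giant ruler of the thin filament, differed by 5.78 and LMOD3, a leiomodin that starts thin filaments, by 5.22. The tropomodulin genes TMOD4 and TMOD1, which cap filament ends, differed by 4.10 and 2.07.

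Tropomyosin genes were the exception on the thin filament. TPM2 differed by 1.73 with no overlap. TPM1 and TPM3 differed by -0.17 and -0.07, with overlapping ranges, on the probe set with the highest mean of each gene. Both are also made outside skeletal muscle. Their other probe sets gave up to 2.62 for TPM1 and 0.62 for TPM3, and the 4 of TPM2 gave 1.17 to 5.34, so for these genes the value depends on the probe set read. TPM1 also has 3 probe sets here, of which 2 were lower and 1 higher in muscle-rich arrays.

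At the Z-disc and along titin, 18 of 23 measured genes were counted higher, with a median of 2.21 (within-period 2.03). MYOT, the myotilin gene of the Z-disc, gave the greatest measured difference of signal. Its signal was 11.11 to 13.00 (median 12.07) in muscle-rich and 4.69 to 7.24 (median 5.58) in muscle-poor arrays, a difference of 6.32. Its muscle-poor signals lie near the low end of the scale, where differences are compressed and no background call was used, so no fold is given. KLHL41, which keeps thin filament proteins stable, differed by 6.14, and TTN, the titin gene that spans the sarcomere, by 5.93. MYOZ1, a calsarcin of fast fibres, differed by 5.71, SMPX, a small muscle protein, by 5.70, and XIRP2, an actin-binding repeat protein, by 5.31. DES, the muscle intermediate filament gene, differed less, by 2.03, with means of 11.94 ± 0.60 and 9.91 ± 0.58 (n = 9 each); it was picked after its values were seen, smooth muscle makes it too, and its other probe set gave 0.02.

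**Figure D2:**
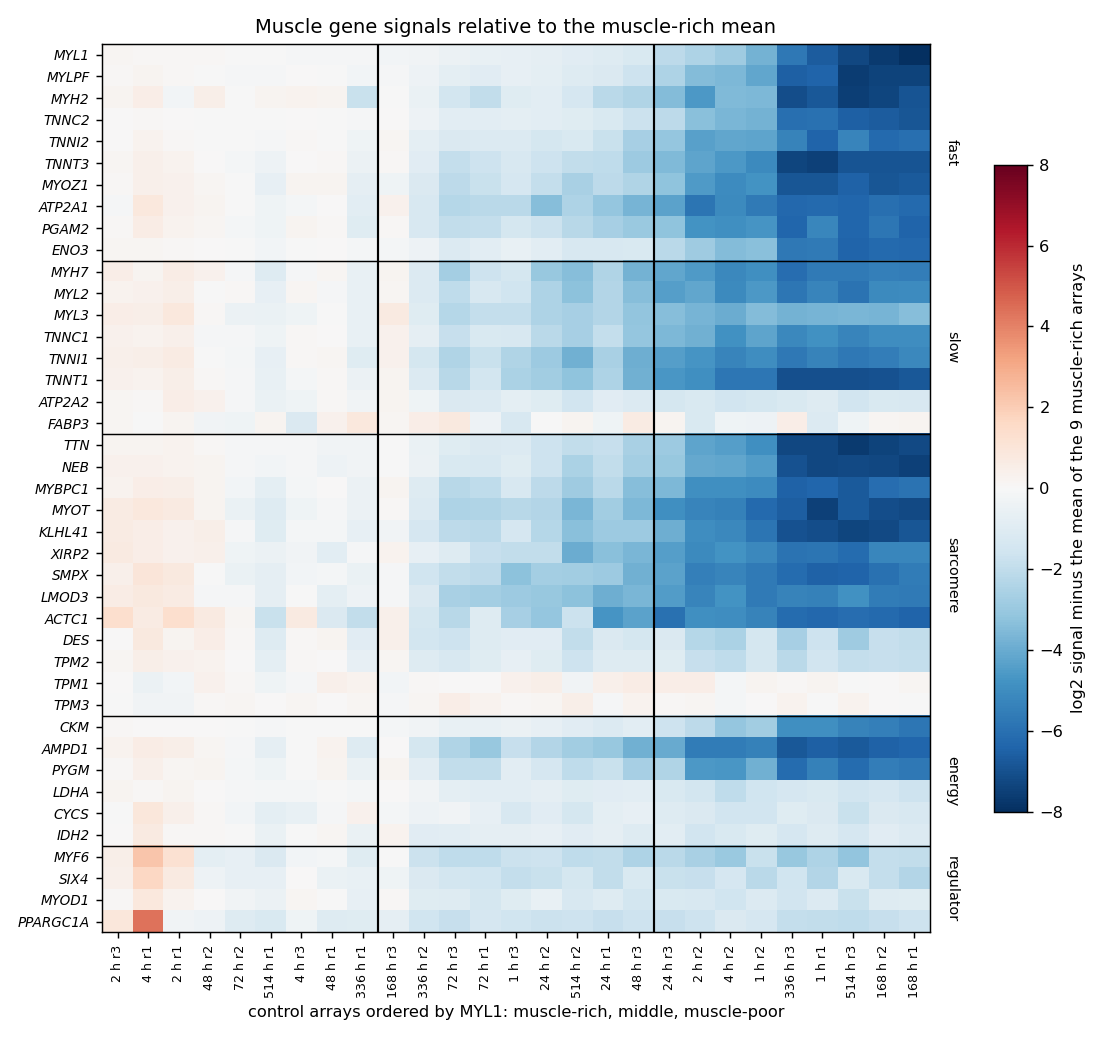
Each row is a gene and each column 1 of the 27 control arrays in order of MYL1, grouped as fast fibre, slow fibre, sarcomere, energy and regulator genes; colour gives the log2 signal minus the mean of the 9 muscle-rich arrays. Most sarcomere genes darken from left to right, TPM1 and TPM3 show little change, FABP3 varies from -1.31 to 0.83 without following MYL1, and PPARGC1A is high in 1 array, control 4 h replicate 1.

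Genes of excitation and calcium handling were split. Of 11 measured, 6 were counted higher, and the list median was 1.09 (within-period 0.79). ATP2A1, the calcium pump of fast fibres, was 11.11 to 12.83 (median 11.97) against 5.66 to 7.73 (median 5.95), a difference of 5.77. SLN, the small pump regulator sarcolipin, differed by 4.86 and RYR1, the calcium release channel of the sarcoplasmic reticulum, by 4.84. TMEM38A, a potassium channel of the same membrane, differed by 2.17. ATP2A2, the calcium pump of slow fibres that other tissues also make, was 1.33 higher and did not overlap, though its 4 probe sets ran from -0.31 to 1.33. CASQ2, a calsequestrin of heart and slow fibres, had means of 7.01 ± 0.16 and 7.00 ± 0.22 (n = 9 each), and its other probe set was 0.72 higher. Of the membrane complex 2 genes were measured, of which SGCD, a sarcoglycan, was counted higher (1.32) and DMD, dystrophin, overlapped (0.18).

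The energy reserve list, which holds creatine kinase, glycogen and glycolytic genes, had 20 of 29 members counted higher and a median of 1.503 (within-period 1.23). AMPD1, the muscle AMP deaminase, was 11.51 to 13.08 (median 12.67) in muscle-rich and 5.73 to 8.48 (median 6.16) in muscle-poor arrays, a difference of 5.95 (5.25 within periods). PGAM2, a muscle glycolytic mutase, differed by 5.30, PYGM, the muscle glycogen phosphorylase, by 4.94, and ENO3, the muscle enolase, by 4.68. CKM, muscle creatine kinase, differed by 4.01, between 13.86 to 14.06 and 8.18 to 12.31. LDHA, a lactate dehydrogenase found in most cells, was 1.47 higher, less than any of these 5. FABP3, a fatty acid binding protein of slow fibres and heart, did not follow, with 0.25 and overlapping ranges.

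Mitochondrial genes were higher as a group, though by little. Of 54 respiratory chain genes 51 had a higher mean in muscle-rich arrays, against 42.8% of all genes. Their median was 0.47 (within-period 0.35), and 16 were higher with no overlap, compared with 2.99% of all genes. CYCS, the cytochrome c gene, was the 1 gene of the list counted higher, with 9.66 to 11.32 against 8.61 to 9.44, a difference of 1.30. NDUFA5, a complex I subunit, was 1.15 higher (0.73 within periods) with overlap. NDUFA8 and NDUFS7, of the same complex, were 0.99 and 0.87 higher, in both cases with no overlap. COX6A1, a cytochrome oxidase subunit whose partner form is used in heart and muscle, was lower (-0.26) with overlap. COX7A1, the heart and muscle form of another subunit and a member of the energy reserve list, was counted higher (1.34). Of 30 citrate cycle and fatty acid oxidation genes 28 were higher (median 0.41) and 2 counted, IDH2 (1.14) and SUCLA2 (1.05), enzymes of the citrate cycle. Mitochondrial ribosomal protein genes, a list added after the values were seen, were higher in 54 of 58 with a median of 0.28 (0.16 within periods).

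Most regulators of muscle genes named here were measured at lower signals. Their list also holds NRAP, a structural scaffold at the ends of myofibrils, with a muscle-rich mean of 10.29. Of 12 list members, 4 were counted higher: NRAP by 3.61, MYF6 by 2.45, SIX4 by 1.84, and MYOD1, a master factor of the muscle lineage, by 1.28. MYF6, a muscle lineage factor too, had a second probe set at -0.34. PPARGC1A, a coactivator that drives mitochondrial genes, was 11.44 in control 4 h replicate 1, while the other muscle-rich arrays held 5.91 to 8.00 and the muscle-poor ones 5.08 to 5.96. Its difference was 1.71 with that array and 1.16 without it.

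Genes whose signal ran closest with MYL1 over the 27 control arrays were, by Pearson's r as a description, CKM (0.993), MYLPF (0.992), ENO3 (0.989), TNNC2 (0.988), TTN (0.974), NEB (0.973), MYH2 (0.959) and TNNT3 (0.955). Fast and slow genes parted within the muscle-poor class. Relative to the muscle-rich mean, the median of the fast list was -3.21 to -4.33 in the 4 muscle-poor arrays with MYL1 above 10 and -6.32 to -6.72 in the other 5. Slow genes stood at -3.49 to -4.39 and -4.20 to -4.47 in the same arrays. The step from the 4 to the 5 arrays was thus smaller in the slow list than in the fast one, and it varied between slow genes. The means in the 4 and the 5 arrays were 7.12 and 5.44 for TNNT1, 8.12 and 7.10 for MYH7, 8.51 and 7.66 for MYL2 and 7.57 and 7.55 for MYL3. For the fast MYLPF they were 10.68 and 7.03. MYL1 is itself a fast gene, so a ranking on it follows fast genes by its construction, and dim signals are compressed. In the muscle-rich class TNNC2 spanned 0.23 and MYL1 0.26, compared with a median span of 0.62 over all genes, while MYOM1 spanned 3.20. Signals such as those of TNNC2 (up to 14.44) lie near the top of the scale, whose highest value is 14.54, and the part of saturation was not tested.

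Of the 130 genes counted higher, 58 stand in none of the muscle and energy lists. Those named here were picked after their values were seen. CMYA5, a large protein of striated muscle, differed by 5.08 (10.66 to 12.32 against 5.99 to 8.30). The probe set named FNTA, a farnesyltransferase subunit, differed by 4.36, while the gene's other probe sets were not higher (the lowest at -0.03), so the name rests on 1 of 3. COX8H, a muscle form of a cytochrome oxidase subunit, differed by 3.62, ASB11, a ubiquitin ligase adaptor, by 3.55 and SH3BGR by 3.25. MACROD1, an enzyme of mitochondria, differed by 3.20, RTN2, a reticulon, by 3.13, CAP2, an actin regulator, by 3.02 and FITM1, a lipid droplet protein, by 2.91. EGF, epidermal growth factor, was 8.20 to 10.17 in muscle-rich and 6.55 to 7.57 in muscle-poor arrays, a difference of 2.44. CA3, a carbonic anhydrase of muscle and fat, was 2.12 higher and 1.13 within periods. BIN1 (1.48), which shapes the tubules of muscle membrane, the myosin chaperone UNC45B (1.60), glycogen genes GYG1 (1.66) and STBD1 (1.65), and the mitochondrial CHCHD10 (1.73) were also among them.

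**Figure D3:**
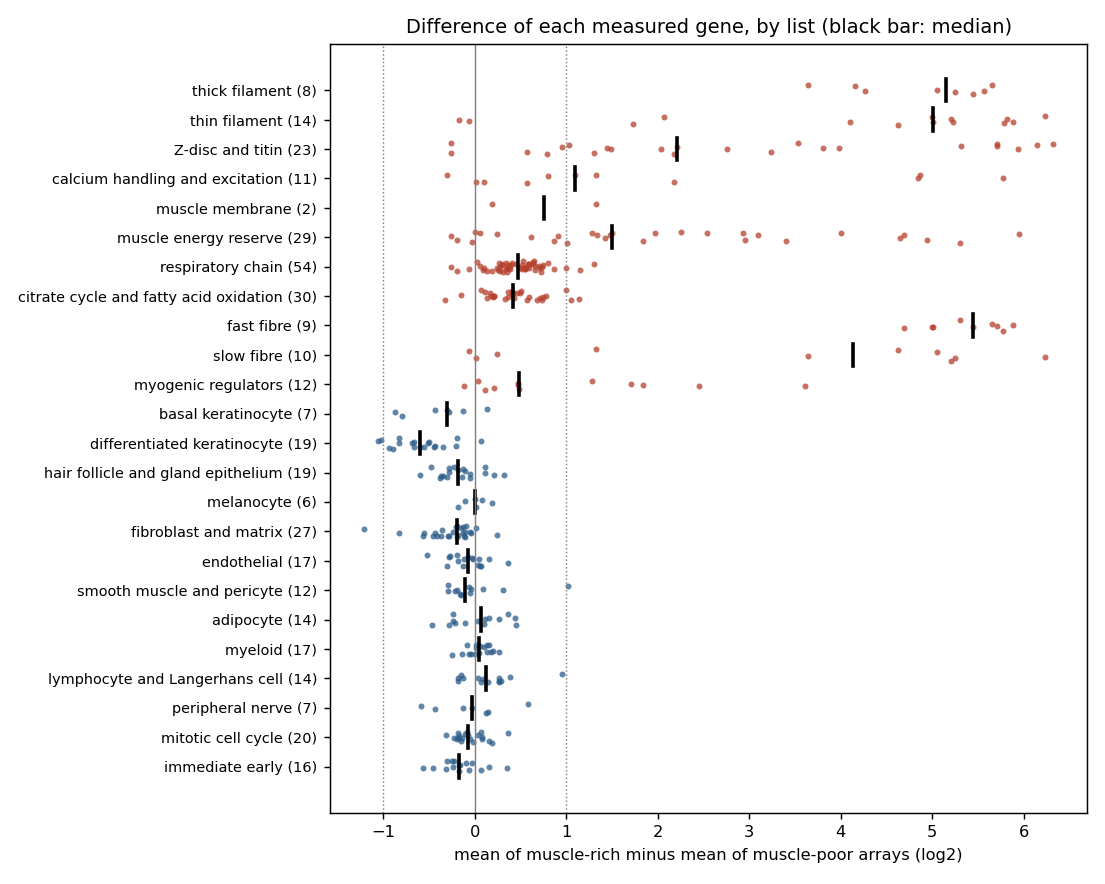
Each point is a measured gene, placed by the mean of the 9 muscle-rich minus the mean of the 9 muscle-poor control arrays (log2), with 1 row per list and the number of genes in brackets; black bars are medians and dotted lines mark a difference of 1. Muscle lists reach beyond 5, and skin lists stay between -1.21 and 1.02.

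Skin genes were lower in muscle-rich arrays by small amounts, in the same arrays where muscle genes were higher by large ones. Of 6764 genes 57.2% had a lower mean in muscle-rich arrays. Differentiated keratinocyte genes were lower in 18 of 19, with a median of -0.60, but within periods the median was -0.35, and it was -0.19 in period 2 alone and -0.40 in period 3 alone. None of the 19 stood apart, and of all genes only 0.192% were lower with no overlap. ABHD12B, a lipase-like gene, was 6.35 to 8.49 (median 7.57) in muscle-rich and 7.66 to 9.38 (median 8.74) in muscle-poor arrays, a difference of -1.06 with overlap (-0.60 within periods). SPINK5, an epidermal protease inhibitor, differed by -1.03 (-0.38 within periods). KRT2, a late keratin, differed by -0.94 (-0.57 within periods) and CALML5, a calcium sensor of differentiating keratinocytes, by -0.90 (-0.35 within periods). Basal keratinocyte genes were lower in 6 of 7 (median -0.30), led by COL7A1, the anchoring fibril collagen (-0.87), and TRIM29 (-0.80), and COL17A1, a hemidesmosome collagen, was -0.43. Within periods these were -0.38, -0.36 and -0.27, and the list median was -0.19. These ranks change the period balance and the muscle contrast together, and the part of the period in the skin differences was not tested. Control 168 h replicate 3, the middle array of period 1 with a muscle score of 11.80, had a differentiated list mean of 11.19 and a basal one of 9.70. Muscle-rich arrays reached at most 11.10 and 9.40.

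Fibroblast and matrix genes were lower in 25 of 27 genes, with a median of -0.20 and a within-period median of -0.19, so this list kept its value. COL1A2 differed by -1.21 (10.38 to 11.91 against 11.13 to 13.71; -0.53 within periods) on its brightest probe set, with 0.21 on its other. LOX, which cross-links collagen, differed by -0.83 and -0.08 within periods, COL6A2 by -0.57 (-0.35) and COL5A1 by -0.55 (-0.39). COL3A1 was 0.24 higher with overlap, and -0.02 within periods. Hair follicle and gland genes had a median of -0.18 (15 of 19 lower; -0.12 within periods and -0.02 in period 2 alone), led by CDH1, E-cadherin (-0.60, and -0.31 within periods).

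The 13 genes that were lower with no overlap included CRYBG1 (-0.70), ZFP36 (-0.56), an mRNA decay factor, TRAF3IP2 (-0.55), an adaptor of interleukin 17 signalling, HTRA1 (-0.35), CADPS2 (-0.32) and the membrane protein CD9 (-0.29). The other 7 were RPS27, RPL32, RPL17, RPL14, RPL29 and RPL13A, which are ribosomal proteins, and NACA, a factor that binds new proteins, at -0.24 to -0.12. Other probe sets of RPL17 (0.54), RPL32 (0.10), RPL13A (0.11) and NACA (0.03) went the other way. Within periods the 13 differed by -0.36 to -0.10, and none of them stayed apart. Ribosomal protein genes, another list added after the values were seen, were lower in 56 of 58 with a median of -0.11 (also -0.11 within periods). Per array their mean was 13.06 to 13.20 in muscle-rich and 13.20 to 13.28 in muscle-poor arrays. The median of the middle arrays was 13.25, no lower than the 13.24 of the muscle-poor ones.

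**Figure D4:**
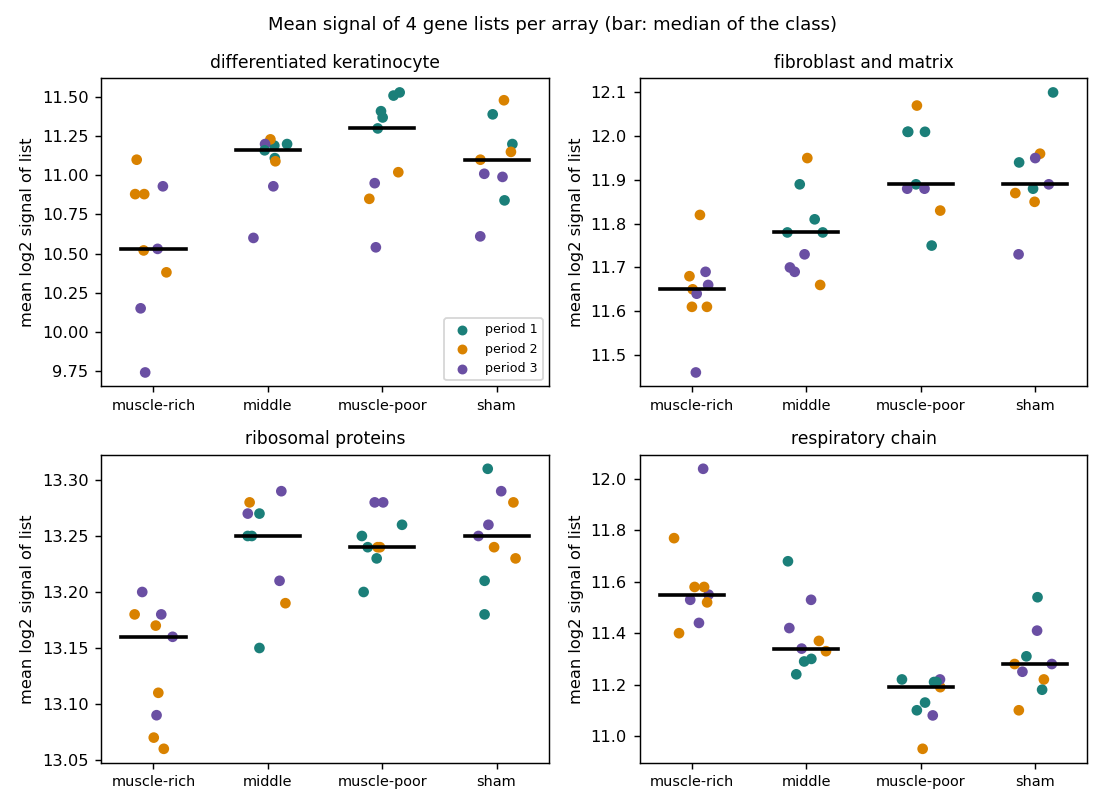
Mean log2 signal of 4 gene lists per array, by class, with 1 point per array coloured by processing period and a bar at the class median. Medians in muscle-rich and muscle-poor arrays are 10.53 and 11.30 for differentiated keratinocyte, 11.65 and 11.89 for fibroblast and matrix, 13.16 and 13.24 for ribosomal protein and 11.55 and 11.19 for respiratory chain genes. In middle arrays they are 11.16, 11.78, 13.25 and 11.34 in the same order.

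Other cell types barely differed on balance. Medians were 0.01 for melanocyte, -0.07 for endothelial, 0.07 for adipocyte, 0.05 for myeloid, 0.12 for lymphocyte and -0.03 for nerve genes, and -0.11 for smooth muscle and pericyte genes. Within smooth muscle genes SYNM, the intermediate filament protein synemin, was 1.02 higher with a slight overlap. Skeletal muscle makes synemin too. ADIPOQ, the fat cell hormone adiponectin, was 9.32 to 11.88 in muscle-rich and 9.11 to 12.46 in muscle-poor arrays. Of these medians, those of the melanocyte, endothelial, adipocyte, myeloid, lymphocyte and nerve lists changed sign in at least 1 alternative. Myeloid genes had a median of -0.39 in period 2 and 0.25 in period 3, and lymphocyte genes -0.21 and 0.33, so their direction was not stable. The mitotic median was -0.08, with 13 of 20 genes lower, near the 57.2% of all genes. Within periods it was -0.17 with 19 of 20 genes lower, where 4263 of all 6764 genes were lower. Immediate early genes had a median of -0.18.

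The 9 sham arrays, which took no part in the ranking, allowed a test of the same relation. Their MYL1 was 13.75, 13.41 and 13.23 at 1, 2 and 4 h, 11.36, 9.03 and 11.69 at 24, 48 and 72 h, and 5.65, 7.18 and 6.41 at 168, 336 and 514 h. MYL1 in sham arrays thus went with the time window, and with 1 animal at each time muscle content, time and animal cannot be told apart. In limma (Benjamini-Hochberg over 23998 probe sets) the slope on MYL1 was positive with an adjusted p below 0.05 for 17 probe sets (0.0708%) and negative for 0 (0.0%), while 1143 had an unadjusted p below 0.05 in either direction. Of genes 13 were called, all positive (0.192%).

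Among the 13 genes, 12 are muscle genes that were also counted higher in muscle-rich controls. MYLPF had a slope of 0.96 ± 0.05 (SE, limma adjusted p = 9e-06), that is, its log2 signal changed nearly as much as that of MYL1. MYH2 had 0.91 ± 0.07, TTN 0.88 ± 0.07 (limma adjusted p = 0.000599 for each) and NEB 0.83 ± 0.08. TNNC2, ENO3, TNNT3, KLHL41, MYOZ1, SLN, TNNI2 and CKM followed with 0.80 to 0.63. DPP4, a peptidase counted here with fibroblast genes, had a small slope (0.10 ± 0.01, limma adjusted p = 0.0432), differed by -0.20 in controls (0.07 within periods) and lost its call in 15 of 17 alternative fits. Of the 12 muscle genes, CKM, ENO3, MYH2, MYLPF, NEB, TNNC2 and TTN lost their call in 1 of the 17, the fit with the time window. TNNI2 lost it in 6, TNNT3 in 7, MYOZ1 and SLN in 8 and KLHL41 in 10. With the time window in the fit the slopes of the 12 were 0.66 to 1.01, as large or larger for 9, with greater standard errors (0.16 for MYLPF) and limma adjusted p from 0.827 to 1.0. Of the 130 genes counted higher in controls, all 130 had a slope above 0, compared with 52.9% of all genes, 12 with adjusted p below 0.05 and 81 with an unadjusted p below 0.05. Their median slope was 0.12, against 0.0017 over all genes. Slow genes had slopes above 0 in 7 of 10 and were called in 0. With the muscle score in place of MYL1, 61 genes (0.902%) were called, all positive, but 29 of them are part of that score and so were tested against themselves in part. The other 32 included 3 fast genes and 0 slow genes. With the score 6 slow genes were called, and all 6 are part of it. Since the score holds most measured slow genes, the 0 does not show that slow genes failed to follow muscle. No gene of the keratinocyte, ribosomal protein and respiratory chain lists was called in either fit. Of all genes only 0.192% were called on MYL1 and 0.902% on the score, so an absence of calls says little about these lists. COX8H, which is on none of them, was called with the score. Slopes on MYL1 were above 0 in 45 of 58 ribosomal protein genes, although 56 of the 58 were lower in muscle-rich controls. For respiratory chain genes 47 of 54 slopes were above 0. The counts were 3 of 19 for differentiated and 4 of 7 for basal keratinocyte genes. KRT2 had the steepest negative slope among named skin genes, -0.33 ± 0.07 (limma adjusted p = 0.36).

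**Figure D5:**
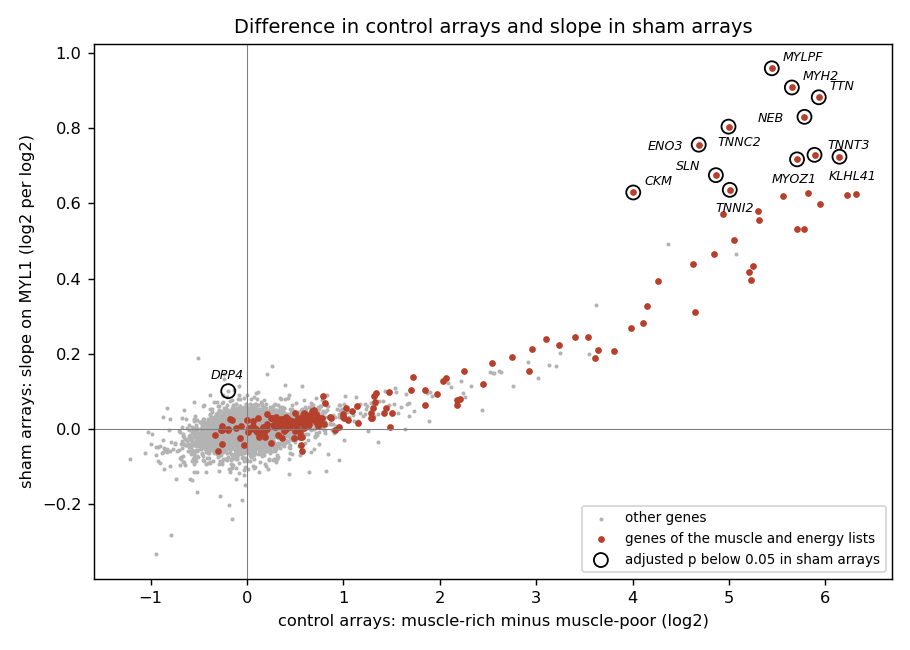
Each point is a gene, with its difference between muscle-rich and muscle-poor control arrays (log2) on the horizontal axis and its limma slope on MYL1 over the 9 sham arrays (log2 per log2) on the vertical axis; red marks muscle and energy genes and black rings the 13 genes with adjusted p below 0.05. Of these, 12 lie at differences of 4.01 or more and DPP4 lies at -0.20.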

How the data were processed

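RNA from 63 biopsies was hybridized to 1 array each. Per the submitters' processing notes the authors used RMA and Partek, with no version; the deposited log2 values per probe set (4.05 to 14.54) were used with no further scaling. RMA compresses differences of dim probe sets. Of 24123 probe sets 124 controls were left out. The supplied annotation gave 1 symbol to 10069 of the rest and several to 198, while 13732 were not listed; 9961 matched RefSeq genes by gene number. Each of the 6765 genes was read from its brightest probe set, by the mean of the 63 arrays.

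Control arrays were ranked by MYL1 and compared by means, SD and overlap. Slopes on MYL1 in the 9 sham arrays were fitted with limma 3.58.1 (R 4.3.3; lmFit, eBayes; 7 residual and 3.02 prior degrees of freedom), adjusted by Benjamini-Hochberg with a threshold of 0.05, two-sided; the script was tested on simulated data. By the design text each sham array comes from 1 animal. The labels tie replicate numbers of controls to sacrifice days, and whether the numbers mark animals is not stated.

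The classes, 24 gene lists, alternatives and named genes were chosen with earlier results of these data known. Named genes are the 15 greatest differences in each direction without overlap (13 were lower), the 8 most like MYL1, the 4 greatest of each list (all of the filament lists), and the sham calls. A further 30 were picked after their values were seen.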

Additional observations from a re-analysis of the deposited data

Results flagged for a closer look

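Single arrays that stood apart from the other 8 of their class were sought for the named genes, and 38 of 438 groups of values had one. The chance rate of about 1 in 20 holds for independent groups. Many of these genes were named for their values and vary together, so an excess over chance was not tested. The sham array at 1 h was high in muscle genes: MYOM1 10.46, TMOD4 11.05, TMOD1 9.64, TPM2 12.64, SGCD 9.64, NRAP 9.18, DES 11.95, SH3BGR 10.53, MACROD1 10.56, RTN2 9.11, CAP2 10.36, FITM1 11.20, EGF 8.03, UNC45B 8.93 and STBD1 10.58. It was also high in the mitochondrial genes NDUFA8 (11.20), IDH2 (11.47), SUCLA2 (10.86) and COX7A1 (10.78). The other sham arrays reached at most 8.25 for MYOM1 and 10.67 for DES. Of the sham arrays, the one at 1 h also had the highest MYL1 (13.75) and the highest muscle score (11.16).

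Control 4 h replicate 1, a muscle-rich array, was high in PPARGC1A (11.44), NDUFS7 (12.03) and UCHL1 (8.24) and low in CALML5 (10.95), KRT1 (13.62), CRYBG1 (8.82) and TRAF3IP2 (9.52). Without it 123 genes were counted higher, all 123 of them among the 130, and 0 lower. MYH2 was 11.68 in control 336 h replicate 1, against 13.23 to 13.99 in the other muscle-rich arrays.

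Of muscle-poor arrays, control 24 h replicate 3, the one with the highest MYL1, was high in AMPD1 (8.48) and MACROD1 (8.33). Control 2 h replicate 2 was high in NACA (13.68) and low in CHCHD10 (9.37), control 1 h replicate 2 low in RGS5 (8.82), and control 4 h replicate 2 low in KRT1 (14.05).

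The sham array at 514 h was high in the lymphocyte genes KLRK1 (8.45), CD3E (8.84) and IL2RG (8.73), that at 168 h in COL17A1 (8.44) and that at 24 h in RPL29 (13.72).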

How the results depend on the processing

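The count of probe sets higher in muscle-rich arrays (267) became 62 with 13 arrays on each side, 105 with ranks within periods, 157 with values centred within periods and 148 with a difference of at least 2. Probe sets lower (0) became 8 with 6 arrays on each side, 6 where overlap was allowed, 3 against the 5 lowest arrays, and 21 and 9 in periods 2 and 3 alone. Genes higher (130) became 26, 59 and 73 with 13 arrays on each side, within periods and at a difference of at least 2, and genes lower (0) became 5, 3, 2, 10 and 3 in the order given for probe sets. In sham arrays 17 positive calls became 118 with the muscle score, 10 without the 2 arrays farthest from the median of MYL1 and 1 with the time window; leaving out 1 array gave 10 to 18. Negative calls (0) became 5 with the score and 2 with the period, and 0 to 2 without 1 array. Where an alternative uses fewer arrays or a higher limit its construction changes the count; otherwise the cause was not tested. No counted gene and no called slope changed sign; 31 of 145 named genes, 0 of them counted, and 6 of 24 list medians did in at least 1 alternative. Of gene differences 1670 moved by less than 1 SD and 213 by more. No paired analysis was possible because sham arrays carry no replicate numbers and the comparison of controls has no test. Ranking by another MYL1 probe set was not run, since 1 is named. The alternatives with the 5 lowest arrays, single periods, the time window and without control 4 h replicate 1 were chosen after seeing the data.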
